A study of Mus musculus with 12 samples.

Results

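RNA-seq counts of 15630 genes were compared between 3 libraries of lineage-negative bone marrow cells labelled Tet2+/-;Ins2Akita/+ and 3 labelled WT. These are 6 of 11 libraries that have counts among 12 labelled samples, and the 15630 genes are those of 31060 in the table that passed a filter on low counts. All libraries come from C57BL/6 mice, and the others were labelled Tet2+/- (n = 3) and Ins2Akita/+ (n = 2). Tet2+/- means 1 disrupted copy of Tet2, Ins2Akita/+ 1 copy of the Akita allele of an insulin gene, and the combined label both. 1 more sample with the combined label was not analysed here. The labels give neither age, sex, treatment nor the kind of Tet2 disruption, and nothing in them ties a group's samples to different mice. The p-values therefore cover spread among libraries, which may be technical. Below, the combined genotype is called double mutant, Tet2+/- is called Tet2 heterozygous and Ins2Akita/+ is called Akita.

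Lineage-negative marrow is what remains after cells with surface markers of mature blood lineages are removed. Stem cells and progenitors make up more of it than of whole marrow, and they feed the neutrophil, monocyte, dendritic, red cell and lymphocyte lines. TET2 oxidises 5-methylcytosine in DNA, a step towards removing DNA methylation, and its loss in blood stem cells is known for a shift of output towards myeloid cells and for clonal growth with age. The Akita insulin misfolds in pancreatic beta cells and gives lasting high blood glucose, so the marrow of Akita mice develops in a diabetic body. In a bulk sample, fewer cells of a type and less RNA per cell cannot be told apart.

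Tet2 (chr3:133463679-133545139, GRCm38, minus strand, protein coding) was read first. CPM, the usual count scale after adjustment for library size and composition, is the unit of all levels below. Tet2 stood at 91.2, 128 and 45.1 CPM in WT libraries 1 to 3 and at 66.5, 108 and 34.2 CPM in the libraries labelled double mutant. It stood at 19, 18.5 and 19.3 CPM in Tet2 heterozygous and at 131 and 107 CPM in Akita. The groups WT and double mutant overlapped (log2 difference -0.34, SE 0.43; edgeR quasi-likelihood adjusted p = 0.906), while the ranges of the 2 groups with a Tet2+/- label did not overlap (edgeR adjusted p = 0.14, with the block 0.0286). The Tet2 level thus goes against that shared label, and every direction below is one between libraries labelled double mutant and libraries labelled WT. On the other hand, 4 processed pseudogenes near 0 in WT and Akita were high in all 6 libraries with a Tet2+/- label, as given below. They were picked by their calls against WT in these same double mutant libraries, and not each gene of that layout was high in all 6. No value of Ins2 was used, so the Akita label has no check here.

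Total counts ran from 14814409 to 19903212 in WT and from 17138242 to 22600405 in the double mutant. Libraries numbered 3 stood apart: mitochondrially encoded genes took 3.43% to 9.76% of counts in them and 1.36% to 1.94% in the other libraries. The first principal component of the 6 libraries held 50.9% of the variance and put WT library 3 at 125 and double mutant library 3 at 35.4, with the 4 others between -64.7 and -16.2. Each marker of neutrophils, monocytes, B, plasma, T, NK, dendritic, erythroid, megakaryocyte, basophil, eosinophil, progenitor and stromal cells that was checked had at least 10 counts in every one of the 6 libraries. The stem and progenitor markers Kit, Cd34 and Flt3 lay between 74.2 and 129 CPM in WT and between 57.8 and 247 CPM in the double mutant.

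Among the genes called in the libraries labelled double mutant, those of B, T and dendritic cell development were lower than in WT and those of late neutrophils and of inflammation were higher. How many passed the test depended on how the library number was treated. In the fit of all 11 libraries, edgeR called 7 genes at an adjusted p under 0.05, which is 0.0448% of those tested, with 4 higher (0.0256%) and 3 lower (0.0192%). With the library number as a block, which compares libraries of the same number, 255 genes were called (1.63%), 144 higher (0.921%) and 111 lower (0.71%). Without the libraries numbered 3, 519 of 15092 genes were called (3.44%), 246 higher (1.63%) and 273 lower (1.81%). The 7 genes were in all 3 sets, and 207 genes were shared by the latter 2, which is 81.2% of the block's and 39.9% of the other. With both the block and the exclusion of number 3, an alternative added after seeing the data, 149 were called (64 higher, 85 lower), 84 of which were among the 255. Below, "called with the block" and "called without number 3" refer to these fits, and a gene named with either is not called in the fit of all libraries without the block unless this is said.

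**Figure D1:**
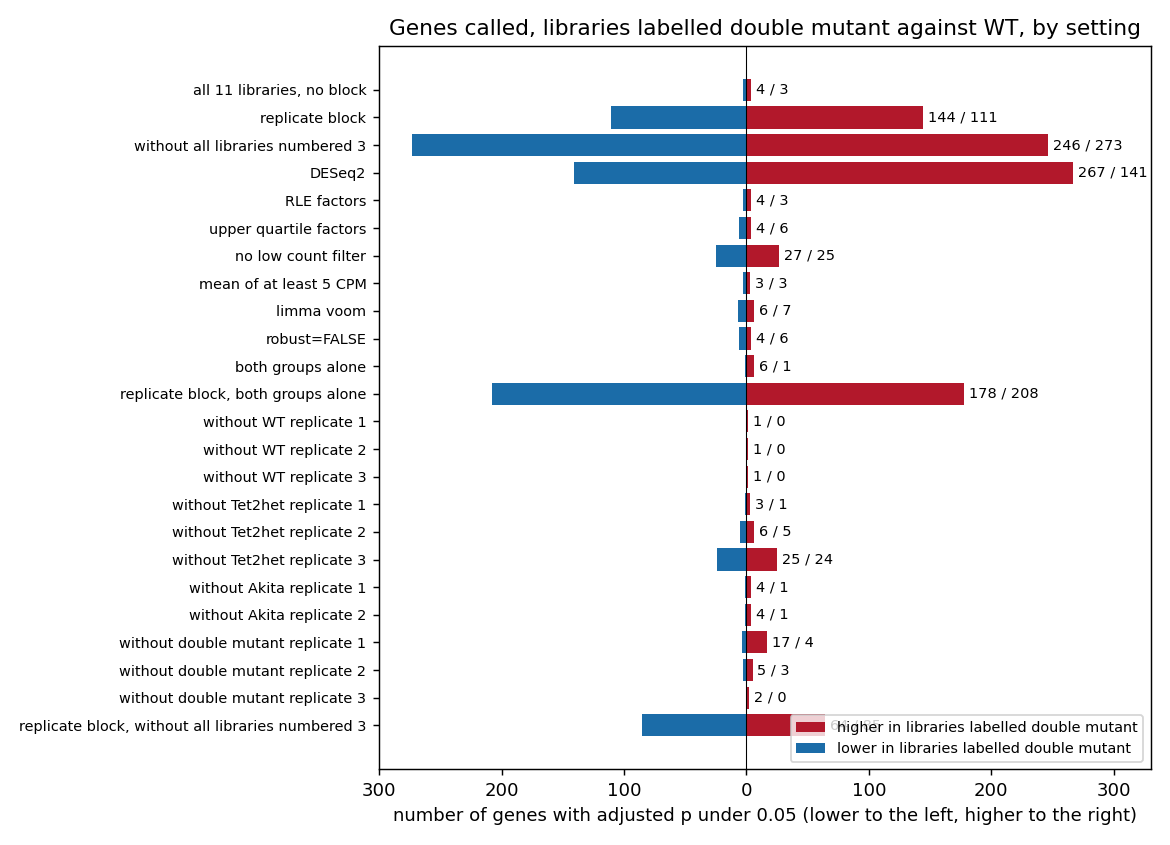
Horizontal bars give the number of genes with adjusted p under 0.05 (x axis) in each setting (y axis), higher in the libraries labelled double mutant to the right and lower to the left, with both numbers printed as higher / lower. The fit of all 11 libraries calls 4 and 3, the replicate block 144 and 111, and leaving out any 1 WT library leaves 1 gene.

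All 144 higher and 111 lower genes of the block had the same sign without it. Among the 144, the 3 libraries labelled double mutant lay above the 3 WT libraries without overlap for 113, where 9.55% of all genes tested did so. Among the 111, they lay below without overlap for 84, against 8.57% of all genes. The median log2 difference was 2.06 among the higher and -1.61 among the lower genes, and 75 and 38 of them differed by at least 2. Of the higher genes 120 and of the lower 109 were protein coding. The lists of genes described below held 27 of the higher and 43 of the lower genes. Without number 3, 106 of the 141 higher genes that could be tested and 101 of the 111 lower genes were called.

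**Figure D2:**
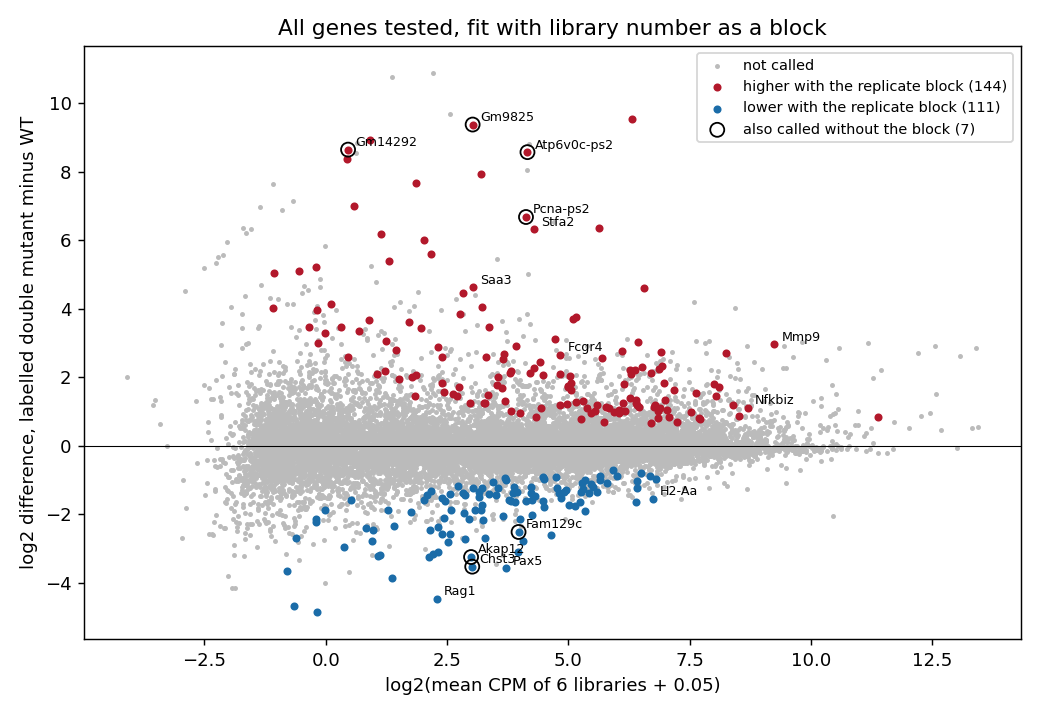
Each point is a gene tested: the x axis is log2 of its mean CPM over the 6 libraries plus 0.05, the y axis its log2 difference, libraries labelled double mutant minus WT, in the fit with the replicate block. Red and blue mark the 144 higher and 111 lower genes called, and rings mark the 7 genes called without the block as well.

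In the fit of all libraries 3 genes were called lower than WT, and all 3 were also called lower than each single mutant. Fam129c (chr8:71597648-71607936, plus strand; now named Niban3) encodes a protein of the niban family that is known from B cells. Its counts were 520, 456 and 514 for WT against 102, 92 and 67 for the double mutant, or 26.2, 22.7 and 31.1 against 5.11, 4.58 and 4.25 CPM. No library labelled double mutant came near the lowest of the 8 others, which was 20 CPM in Akita. The log2 difference was -2.52 (SE 0.28; edgeR adjusted p = 0.0175, with the block 0.00865). Against Tet2 heterozygous it was -2.94 (SE 0.29, edgeR adjusted p = 0.0199) and against Akita -2.27 (SE 0.30, edgeR adjusted p = 0.0475).

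Chst3 (chr10:60181532-60219260, minus strand) adds sulfate to chondroitin chains of proteoglycans. Its level was 18, 14.1 and 12.3 CPM in WT and 1.9, 0.547 and 1.46 CPM in the double mutant, where library 2 was the lowest. The log2 difference was -3.50 (SE 0.42; edgeR adjusted p = 0.0234, with the block 0.0103). Chst3 was lower than in Tet2 heterozygous (-3.59, edgeR adjusted p = 0.0259) and than in Akita (-3.61, edgeR adjusted p = 0.0413) as well. Akap12 (chr10:4266380-4359470, plus strand), a scaffold that holds protein kinase A, was at 14.5, 16.3 and 12.1 CPM in WT and at 2.26, 1.54 and 0.824 CPM in the double mutant. The groups did not overlap, and the log2 difference was -3.20 (SE 0.39; edgeR adjusted p = 0.0234, with the block 0.00299). It was -3.56 against Tet2 heterozygous (edgeR adjusted p = 0.0259) and -3.54 against Akita (edgeR adjusted p = 0.0327). Leaving out any 1 of the WT libraries ended all 3 calls against WT, with log2 differences from -2.62 to -2.39 for Fam129c, -3.89 to -3.13 for Chst3 and -3.58 to -2.91 for Akap12 over all libraries left out in turn. None of the 3 was called without double mutant library 3 either. Fam129c and Akap12 also lost the call without double mutant library 2, and Chst3 and Akap12 without Tet2 heterozygous library 1 or either Akita library. Over 11 such fits, Fam129c was called against WT in 6, Chst3 in 4 and Akap12 in 3, and the calls against Akita held in 3, 1 and 3.

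The 4 genes called higher without the block are processed pseudogenes, whose reads may be shared with the parent gene. Counts of Atp6v0c-ps2 (chr6:37806086-37806550) were 2, 2 and 1 for WT and 549, 752 and 655 for the double mutant, or 27.5, 37.4 and 41.5 CPM, close to the 27.2 to 49.2 CPM of Tet2 heterozygous. It was called against WT (log2 8.55, edgeR adjusted p = 6.14e-04) and in each of 11 fits that left out 1 library. For Pcna-ps2 (chr19:9283380-9284160) they were 7, 5 and 6 against 502, 531 and 819 (6.72, edgeR adjusted p = 0.00921). Its parent Pcna stood at 330, 301 and 371 CPM in WT and 282, 270 and 252 CPM in the double mutant, so the parent lay the other way. Gm9825 had 0, 1 and 0 counts against 250, 227 and 390 (edgeR adjusted p = 0.0175). Gm14292 had none in WT and 38, 49 and 57 in the double mutant (edgeR adjusted p = 0.0465), at least 16.5-fold higher on a floor of 3 counts per WT library. Pcna-ps2 was called in 8 of the 11 fits, Gm9825 in 7 and Gm14292 in 4, and these 3 lost the call when any 1 WT library was left out. None of the 4 was called between the double mutant and Tet2 heterozygous (edgeR adjusted p = 0.619 to 0.995). Gbp2b, a guanylate binding protein gene named after its values were seen, had the same layout at 0 in WT and Akita, 8.67, 11 and 1.88 CPM in Tet2 heterozygous and 4.21, 0.398 and 4.5 CPM in the double mutant, but was not called (edgeR adjusted p = 0.187, with the block 0.114). The processed pseudogene Tdg-ps was at 9.48, 5.04 and 6.72 CPM in Tet2 heterozygous. In the double mutant it was at 3.86, 5.32 and 0.38 CPM, with library 3 inside the WT range. Eif3j2, near 0 in WT and Akita, was at 9.22, 1.19 and 15.9 CPM in the double mutant. Rps2-ps10 was at 8.9 to 35.4 CPM in the double mutant, above the WT range of 0.946 to 1.88 CPM.

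**Figure D3:**
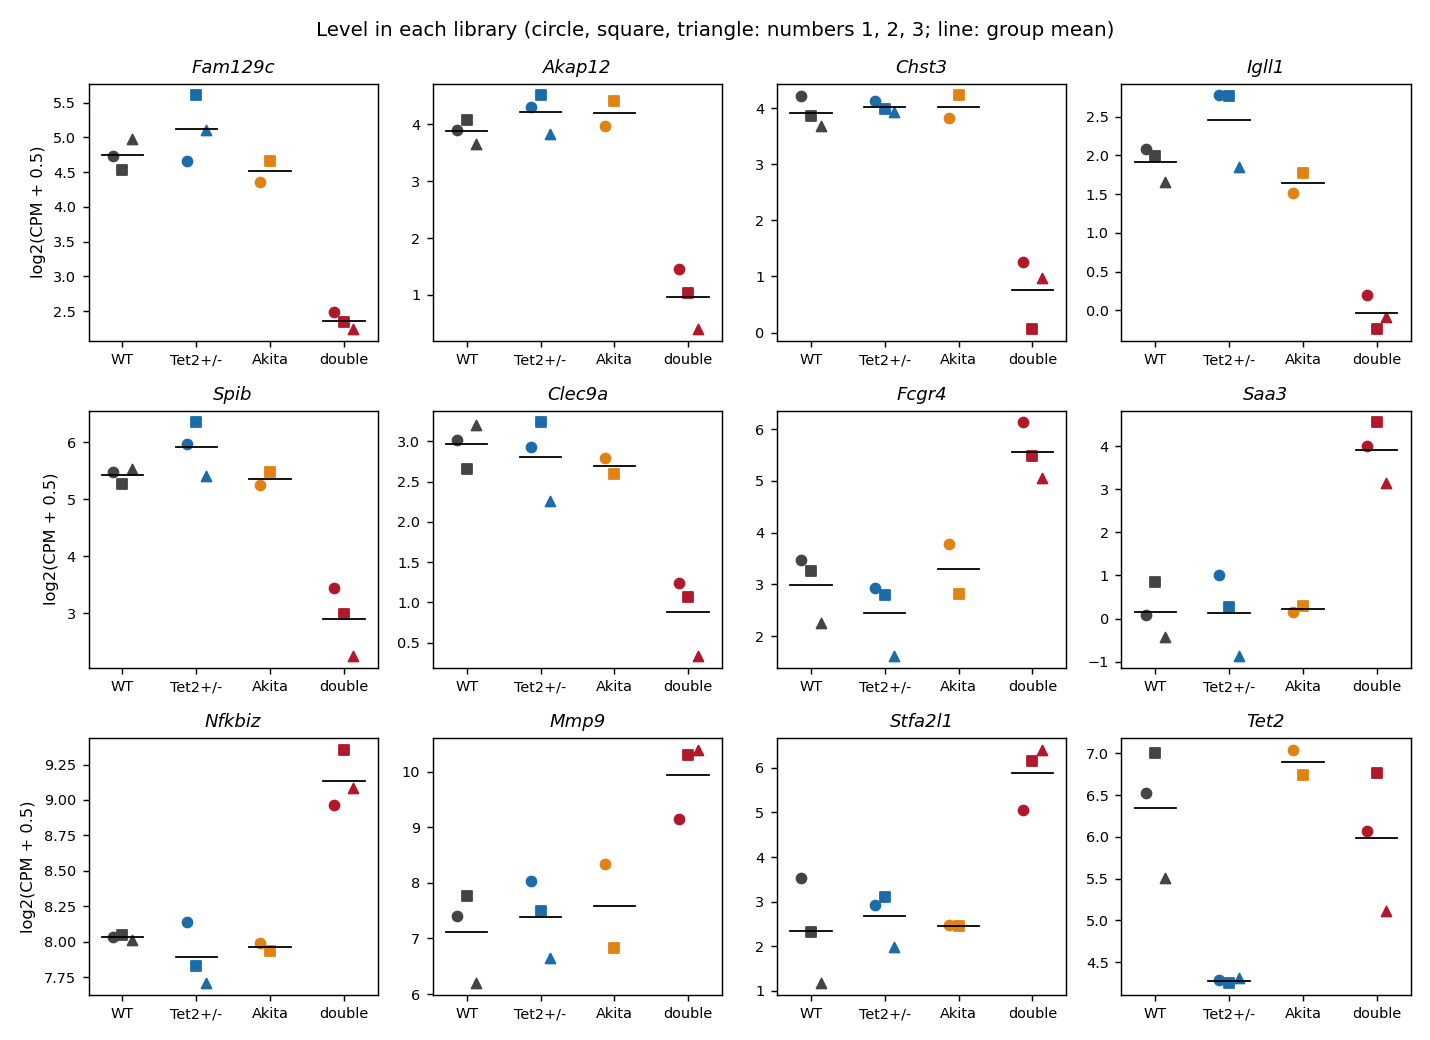
Each panel gives 1 gene as log2(CPM + 0.5) (y axis) in every library of the 4 groups (x axis; double is the libraries labelled double mutant), with circles, squares and triangles for numbers 1, 2 and 3 and a line at the group mean. In the first 11 panels the double mutant libraries stand apart from WT, while Tet2 overlaps WT and is lowest in Tet2 heterozygous.

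B cell development runs through transcription factors that commit a progenitor (EBF1, PAX5, FOXO1) and a surrogate light chain that lets the first heavy chain be tested. Of 15 B lineage transcription factors, 8 were called lower with the block and none higher: Bach2, Spib, Ebf1, Ikzf3, Pax5, Irf4, Lef1 and Foxo1. Without number 3, 9 were called lower, the same 8 and Ets1. Beside this and the lists below, 0.71% of all genes were called lower with the block and 1.81% without number 3. Of the 15, 4 lay above and 11 below 0. Without overlap 2 lay higher and 5 lower, against 9.55% and 8.57% of all genes. The median log2 difference of the 15 was -1.01, against -0.05 over all genes tested, and -1.07, -1.12 and -0.90 within numbers 1 to 3. Pax5, which fixes B identity, was at 28.1, 26.9 and 17.4 CPM in WT and 3.11, 0.497 and 2.47 CPM in the double mutant. These ranges lay far apart, with double mutant library 2 the lowest (log2 -3.58 with the block, SE 0.52, edgeR adjusted p = 0.0277). Ebf1, its upstream partner, stood at 14.9, 14.5 and 8.89 CPM against 2.56, 1.09 and 1.97 CPM (-2.73 with the block, edgeR adjusted p = 0.018). Bach2, a repressor that holds B cells from plasma cell fate, was at 33.7, 26.3 and 18.4 CPM against 8.67, 5.17 and 4.12 CPM (-2.14 with the block, edgeR adjusted p = 0.00865). It was lower with the block than in Tet2 heterozygous (-2.37, edgeR adjusted p = 0.00471) and than in Akita (-2.11, edgeR adjusted p = 0.0206) too. Spib, a factor of B and plasmacytoid dendritic cells, stood at 44.4, 37.8 and 45.7 CPM against 10.4, 7.46 and 4.25 CPM. Its log2 difference was -2.61 with the block (SE 0.29, edgeR adjusted p = 0.0115) and -2.53 without it, where it missed the threshold (edgeR adjusted p = 0.0506).

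Not each B cell gene was lower. Of 23 genes of the pre-B receptor and of B cell signalling, 7 were called lower with the block (among them Igll1, Fcrla, Blk, Cd22, Ms4a1 and Blnk) and 10 without number 3. Their median was -1.08, or -1.29, -1.83 and -0.56 within numbers 1 to 3, and -1.62 without double mutant library 3. Igll1 (chr16:16860671-16863985), a chain of the surrogate light chain, was counted 74, 70 and 44 times for WT against 13, 7 and 7 times for the double mutant. In CPM that was 3.73, 3.49 and 2.66 against 0.652, 0.348 and 0.444, without overlap (-2.77 with the block, SE 0.35, edgeR adjusted p = 0.018). The signalling chain gene Cd79a stood much closer, at 51.6, 39.6 and 36.7 CPM against 31.9, 28.5 and 36.3 CPM, and was not called (-0.40 with the block, edgeR adjusted p = 0.387). Cd24a, the most abundant gene of the list, overlapped between the groups (0.16 with the block, edgeR adjusted p = 0.795).

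No gene of 16 on the plasma cell and immunoglobulin list was called with the block, at a median of 0.36. Without number 3 the heavy chain gene Ighd was called lower (-2.72, edgeR adjusted p = 0.0124). Outside that list, 1 constant gene, 1 joining segment gene and 3 variable segment pseudogenes were called higher with the block and none lower. Of these kinds 12, 8 and 14 were tested. The pseudogene Ighv3-2 was at 0, 0.149 and 0 CPM in WT and 18.2, 2.24 and 34.3 CPM in the double mutant (7.94 with the block, edgeR adjusted p = 0.027). Jchain, which links secreted antibody, was at 1255, 823 and 832 CPM in WT and 1508, 1840 and 2132 CPM in the double mutant, without overlap but not called (0.93 with the block, edgeR adjusted p = 0.104). Ighm, the heavy chain of the first antibody class, was at 728, 1325 and 4855 CPM against 516, 198 and 795 CPM, where the groups overlapped (-2.04 with the block, edgeR adjusted p = 0.0665). Of 179 variable segment genes tested, 4 were called higher with the block and none lower, against 0.921% and 0.71% of all genes. Without overlap 34 were higher and 3 lower, against 9.55% and 8.57% of all genes. Reads of such near-identical segments may be split between them, so single segments are uncertain. Their summed level was 1962, 1682 and 2695 CPM in WT and 2388, 2998 and 3510.4 CPM in the double mutant, which overlapped.

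Early lymphoid genes, those of progenitors before the split of B and T lines, had 6 of 22 called lower with the block (Ccr9, Tcf4, Gfra1, Rag1, Cd7 and Runx2), 8 without number 3 and none higher. The median was -0.65, and -0.98 without WT library 3. Rag1, part of the enzyme that cuts antigen receptor genes, had 8.26, 6.47 and 13.1 CPM in WT and 0.902, 0.0497 and 0.19 CPM in the double mutant (-4.47 with the block, SE 0.79, edgeR adjusted p = 0.038). Double mutant library 1 held most of what was left. Il7r, the interleukin receptor that lymphoid progenitors depend on, was at 29.7, 16.8 and 29.4 CPM against 8.07, 5.07 and 12.3 CPM, which missed the threshold (-1.62 with the block, edgeR adjusted p = 0.0549). Other genes of early progenitors did not follow. Dntt, the polymerase that adds bases at receptor joints, was at 14.2, 14.5 and 54.8 CPM against 9.72, 13.5 and 62.4 CPM (-0.08 with the block, edgeR adjusted p = 0.95). Flt3, the receptor of multipotent and lymphoid progenitors, was at 74.2, 76.2 and 80.5 CPM against 64.3, 57.8 and 79.9 CPM (-0.18 with the block, edgeR adjusted p = 0.813). Dntt and Flt3 were named after their values were seen.

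All 23 T cell genes lay below 0, where 8741 of all 15630 genes did. Their median was -1.38, with -1.45, -1.84 and -0.59 within numbers 1 to 3. Called lower were 4 with the block (among them Tcf7, Bcl11b and Cd2) and 13 without number 3, among them Cd3d, Cd3e, Cd3g and Trac. Over all genes, 0.71% and 1.81% were called lower in these fits. Tcf7, a transcription factor of early T and innate lymphoid cells, was at 90.1, 59.4 and 24.9 CPM in WT and 25.6, 16.1 and 10.7 CPM in the double mutant. WT library 3 lay just below double mutant library 1, so the groups overlapped, but each pair of the same number differed in the same direction (-1.64 with the block, edgeR adjusted p = 0.0325). The summed level of the list was 262 to 835 CPM in WT, lowest in library 3, and 194 to 283 CPM in the double mutant. Of 19 NK cell genes, Tbx21 and Eomes, a pair of related T-box factors, were called lower with the block. Tbx21 was at 19.5, 12.5 and 7.26 CPM against 6.06, 4.72 and 2.85 CPM, without overlap (-1.50 with the block, edgeR adjusted p = 0.04).

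Dendritic cells sample antigen and show it to T cells on MHC class II, and plasmacytoid dendritic cells are the main source of type I interferon. Of 30 plasmacytoid genes, 11 were called lower with the block and 13 without number 3, at a median of -1.21 that was -1.05, -0.95 and -1.27 within numbers 1 to 3. Siglech, a surface lectin of these cells, was at 74.8, 58.7 and 57.5 CPM in WT and 21.9, 19.2 and 12.1 CPM in the double mutant (-1.91 with the block, SE 0.28, edgeR adjusted p = 0.0277). Tcf4, the factor that sets their identity, was at 124, 121 and 95.3 CPM against 64, 57.4 and 46.8 CPM (-1.02 with the block, edgeR adjusted p = 0.0307). Neither pair of ranges overlapped. Of the 30 genes, 8 lay above and 22 below 0. Among the 11 called with the block, Spib, Blnk, Ccr9, Tcf4 and Runx2 were also called on the B lineage, pre-B or early lymphoid lists above. Over all genes, 0.71% were called lower with the block and 1.81% without number 3. Of 19 conventional dendritic genes, 5 were called lower with the block (Cd83, Clec9a, Ccnd1, Cd209a and Zbtb46) and 8 without number 3. Their median was -0.64, or -1.24 without double mutant library 1. Of the 19, 6 lay above and 13 below 0. Without overlap 3 lay higher and 8 lower, against 9.55% and 8.57% of all genes. Their summed level overlapped, at 1458, 1270 and 1365 CPM in WT and 1412, 1566 and 1307 CPM in the double mutant. Clec9a, which takes up dead cells in cross-presenting dendritic cells, was at 7.61, 5.83 and 8.71 CPM against 1.85, 1.59 and 0.761 CPM (-2.46 with the block, SE 0.37, edgeR adjusted p = 0.0277). Irf8, a factor for dendritic cell and monocyte fate, was at 180, 175 and 361 CPM against 88.9, 87.6 and 62.3 CPM. It missed the threshold with the block (-1.56, edgeR adjusted p = 0.0529) and was called without number 3 (-1.01, edgeR adjusted p = 0.0191).

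All 13 MHC class II genes lay below 0, where 8741 of all 15630 genes did, and H2-Aa was the member called with the block. H2-Aa, an alpha chain, was at 214, 191 and 78.1 CPM in WT and 62.6, 63 and 31.3 CPM in the double mutant (-1.55 with the block, SE 0.23, edgeR adjusted p = 0.0277). Both number 3 libraries were the lowest of their group, and the groups did not overlap. Without number 3, H2-Aa, H2-Ab1, H2-Eb1, Cd74 and H2-Ob were called. The median was -0.53, and -1.17 without double mutant library 3. Over the B factor, pre-B, early lymphoid, T, NK, dendritic and MHC class II lists, which leave out the plasma cell and immunoglobulin list, 39 of 156 genes tested were called lower with the block and 0 higher, where 0.71% of all genes were called lower and 0.921% higher. Of the 156, 69 lay lower and 8 higher without overlap, against 8.57% and 9.55% of all genes.

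Neutrophils fill their granules in order, with primary granules in early precursors and secondary granules and secreted proteases later. In all 4 neutrophil lists together, 9 of 70 genes tested were called higher with the block and 0 lower, where 0.921% of all genes were called higher. Of the 70, 56 lay higher without overlap, against 9.55% of all genes. Library number mattered more here than for the lymphoid genes. The secondary granule list of 20 had a median of 1.67, made of 1.15, 1.37 and 4.39 within numbers 1 to 3. All 20 genes lay above WT without overlap, yet 0 were called with the block and 8 were called without number 3. Its summed level was 16881, 18273 and 1817 CPM in WT libraries 1 to 3 and 35971, 47637 and 37965 CPM in the double mutant, so WT library 3 had little of it. Tet2 heterozygous library 3 was as low, at 2007 CPM, while double mutant library 3 was not. Ltf, which encodes the iron binding protein lactoferrin, shows the layout at 2486, 2897 and 332 CPM against 5848, 8470 and 8418 CPM (2.70 with the block, SE 0.76, edgeR adjusted p = 0.106).

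Among 28 late neutrophil genes, 5 were called higher with the block (Padi4, Adam8, Mmp25, Asprv1 and Mmp9) and 10 without number 3. All 28 lay above 0, where 6889 of all 15630 genes did. Mmp9, the gelatinase stored in late granules, was at 170, 217 and 72.8 CPM in WT and 565, 1259 and 1344 CPM in the double mutant (2.97 with the block, SE 0.58, edgeR adjusted p = 0.0488). Padi4, the enzyme that citrullinates histones when neutrophils release chromatin, was at 60.1, 59.2 and 18.5 CPM against 171, 246 and 176 CPM (2.33 with the block, edgeR adjusted p = 0.0324). The double mutant libraries of both genes exceeded every WT library. The stefin A genes, a cluster of cysteine protease inhibitors of near-identical copies whose reads may be split, had 4 of 7 tested called with the block (BC117090, BC100530, Stfa2l1 and Stfa2) and 6 without number 3. Stfa2l1 was at 11, 4.48 and 1.75 CPM in WT and 32.8, 70.9 and 84.5 CPM in the double mutant (3.69 with the block, SE 0.66, edgeR adjusted p = 0.0398). Their summed level ran from 3.39 to 24.8 CPM in WT and from 88 to 606 CPM in the double mutant, highest in library 3. The list median was 5.86, and 3.78 without double mutant library 3. Of 15 primary granule genes 0 were called with the block, and without number 3 Hp was called higher and Prss34 lower. Prss34 is on the basophil list as well and is known as a basophil protease. Mpo, the peroxidase of that granule, was at 5535, 7351 and 1148 CPM against 7394, 7544 and 4546 CPM with overlap. The median of that list was 0.61, and 0.16 without WT library 3.

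**Figure D4:**
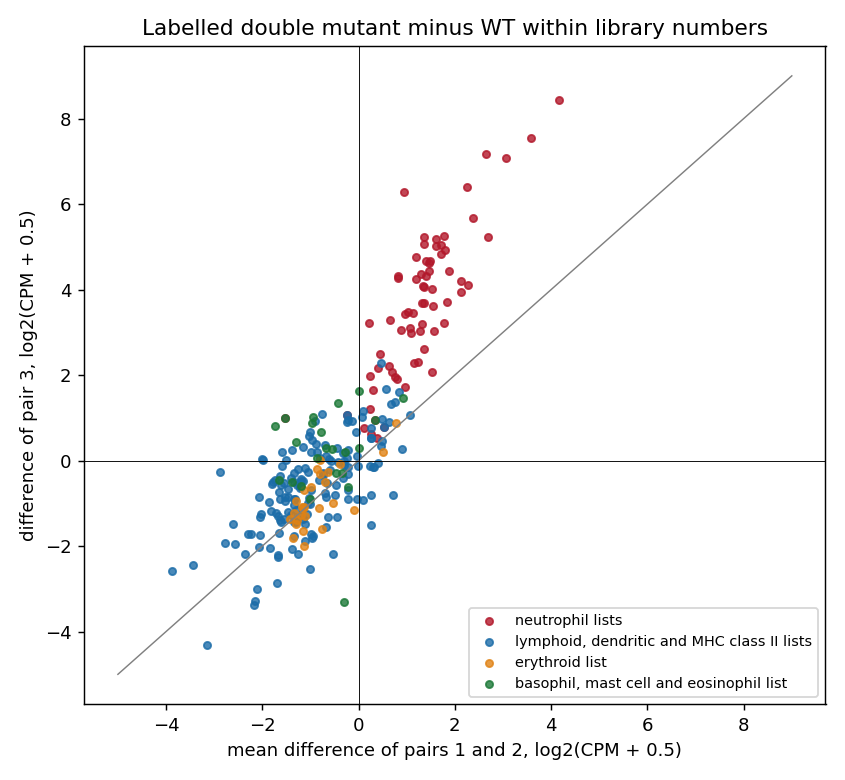
Each point is a gene of the named lists, with the mean difference of pairs 1 and 2 on the x axis and the difference of pair 3 on the y axis, both as log2(CPM + 0.5) of the library labelled double mutant minus WT of the same number; the line marks equal values. Neutrophil genes lie above the line, at larger differences in pair 3, while lymphoid and dendritic genes lie on both sides of it.

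Of 18 Fc and complement receptor genes, 3 were called higher with the block (Fcgr4, C5ar1 and C5ar2) and 0 lower, and 4 were called higher without number 3. Of 22 acute phase and secreted inflammatory genes, 3 were called higher with the block (Saa3, Clu and Tnf) and 0 lower. Over all genes, 0.921% were called higher and 0.71% lower with the block, and 1.63% and 1.81% without number 3. Fcgr4 (chr1:171018920-171029761), an activating receptor for IgG, was at 10.6, 9.01 and 4.23 CPM in WT and 69.6, 44 and 32.6 CPM in the double mutant. It stood at 7.16, 6.41 and 2.56 CPM in Tet2 heterozygous and 13.3 and 6.53 CPM in Akita, so no other library reached the double mutant's range. The log2 difference to WT was 2.65 with the block (SE 0.23, edgeR adjusted p = 0.00299) and 2.61 without it (edgeR adjusted p = 0.117). With the block it was higher than in Tet2 heterozygous (3.23, edgeR adjusted p = 0.00191) and than in Akita (2.67, edgeR adjusted p = 0.0151). C5ar1 and C5ar2, the other genes called, encode receptors of the complement fragment C5a. Itgax, an integrin chain on the receptor list, lay the other way without overlap and was not called (-1.13 with the block, edgeR adjusted p = 0.111). Saa3, an acute phase protein made by myeloid cells, was counted 11, 26 and 4 times for WT against 311, 460 and 132 times for the double mutant, or 0.554, 1.29 and 0.242 against 15.6, 22.9 and 8.37 CPM (4.63 with the block, SE 0.58, edgeR adjusted p = 0.018). Clu, an extracellular chaperone, was at 2.87, 2.94 and 4.17 CPM against 12.8, 30.3 and 22.9 CPM (2.67 with the block, edgeR adjusted p = 0.024). Tnf, a main inflammatory cytokine, was at 50.4, 48.7 and 44.9 CPM against 91.4, 120 and 150 CPM (1.33 with the block, SE 0.24, edgeR adjusted p = 0.0367). Neither Saa3, Clu nor Tnf overlapped between the groups. Without number 3, 6 genes of the acute phase list were called higher and 1 lower, Thbs1, and in the fit of all libraries 18 lay above and 4 below 0. That list's median was 0.89, with 0.45 without double mutant library 3 and 1.39 without WT library 3.

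Nfkbiz, an inducible nuclear partner of NF-kB, was the gene called among 17 NF-kB subunits and inhibitors, where 0.921% of all genes were called higher with the block. WT libraries were close together at 262, 265 and 258 CPM, and the double mutant stood at 499, 654 and 542 CPM (1.11 with the block, SE 0.16, edgeR adjusted p = 0.0242). Of the 17 genes, 8 lay above and 9 below 0, at a median of -0.01. That median ran from -0.34 without WT library 3 to 0.30 without double mutant library 3. The inhibitor gene Nfkbia was at 635, 705 and 434 CPM against 800, 940 and 681 CPM, where the groups overlapped (0.47 with the block, edgeR adjusted p = 0.136). Il6 overlapped as well at 58.9, 47 and 91.5 CPM against 12.3, 33.5 and 73.5 CPM (-0.85 with the block, edgeR adjusted p = 0.491). So did Il1b, at 35.6, 34.7 and 16 CPM against 53.4, 75.8 and 28.3 CPM (0.86 with the block, edgeR adjusted p = 0.0728). Myd88, the adaptor below Toll-like receptors, was called with the block among 26 receptor and inflammasome genes, at 86.5, 95.4 and 49.1 CPM against 149, 191 and 134 CPM (1.10, edgeR adjusted p = 0.0334). Slfn4, a Schlafen gene of myeloid cells, stood at 104, 132 and 29.9 CPM against 348, 723 and 488 CPM (2.72 with the block, edgeR adjusted p = 0.0432). Of 44 interferon response genes, Rsad2 was called higher and Gbp4, Gbp8 and Irf9 lower with the block, against 0.921% and 0.71% of all genes. Without number 3, 4 were called higher and 3 lower. Of the 44, 24 lay above and 20 below 0. Without overlap 3 lay higher and 11 lower, against 9.55% and 8.57% of all genes.

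Red cell genes lay mostly below 0 and basophil genes differed in sign between library numbers. Of all 15630 genes tested, 6889 lay above and 8741 below 0. Of 27 erythroid genes 25 lay below 0 at a median of -1.02, but 0 were called lower, and Nfe2, a factor of red cell and platelet precursors, was called higher with the block at 168, 171 and 111 CPM against 276, 306 and 204 CPM (0.81, edgeR adjusted p = 0.0325). Within numbers 1 to 3 the erythroid median was -0.82, -1.33 and -1.10, and over all libraries it was -0.36 without WT library 3, -0.58 without double mutant library 2 and -1.54 without double mutant library 3. The medians of the basophil, mast cell and eosinophil list were -1.14, -0.45 and 0.30 within numbers 1 to 3. The basophil protease gene Mcpt8 was at 614, 488 and 921 CPM in WT and 141, 192 and 1624 CPM in the double mutant. Library 3 lay above WT and libraries 1 and 2 below, so the sign depended on the pair. It was called lower without number 3 (-1.73, edgeR adjusted p = 0.0104), as were Ms4a2, Gata2, Prss34, Il1rl1 and Cpa3. None of the 23 genes of that list was called with the block. Over all genes, 1.81% were called lower and 1.63% higher without number 3. Mitochondrially encoded genes had a median of 0.996, of -0.23 without number 3 and of -0.53 without double mutant library 3. Glycolysis genes had a median of 0.71 with 22 of 26 above 0, but 0 were called with the block and 3 without number 3, and without WT library 3 the median was 0.39. Of 31 genes of stem and early progenitors, 31 nuclear genes of oxidative phosphorylation, 25 of the unfolded protein response and 14 DNA methylation enzymes, 0 were called with the block.

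**Figure D5:**
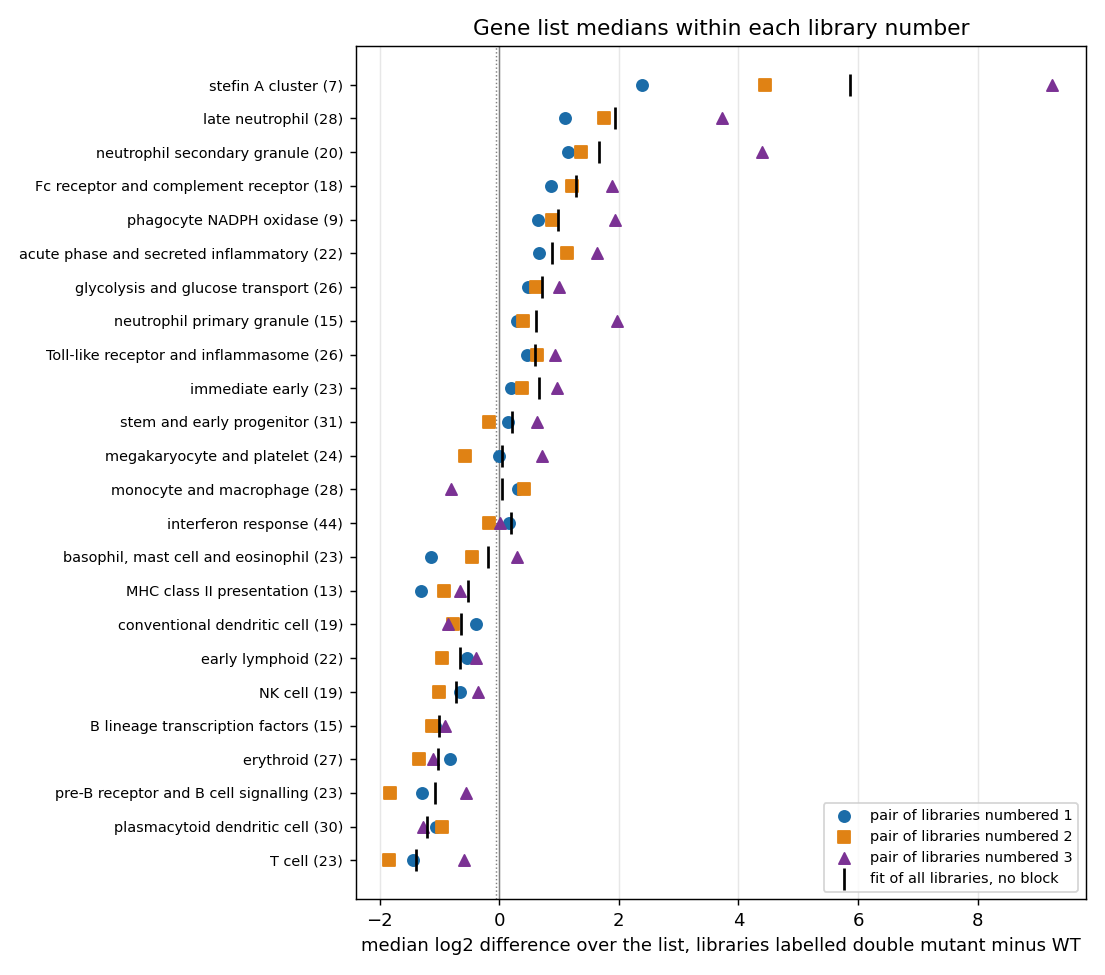
For each list (y axis, genes tested in brackets) symbols give the median log2 difference (x axis), libraries labelled double mutant minus WT, within numbers 1, 2 and 3, and a black bar the median in the fit of all libraries. The T cell, pre-B, plasmacytoid and B transcription factor lists are below 0 in all 3 numbers, and the neutrophil lists are above 0 in all 3 and highest in number 3.

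Several of the genes with the smallest p with the block belonged to none of the lists. Stab2, a scavenger receptor of sinusoidal endothelium, was at 2.07, 1.94 and 10.2 CPM in WT and 0.15, 0.0995 and 0.697 CPM in the double mutant (-3.87 with the block, SE 0.34, edgeR adjusted p = 0.00299). Cnn3, an actin binding calponin, was at 20.4, 19.7 and 52.2 CPM against 5.81, 5.12 and 10.5 CPM (-2.02 with the block, SE 0.19, edgeR adjusted p = 0.00462). In both genes library 3 was the highest of each group, and the groups did not overlap. Each was also lower with the block than in Tet2 heterozygous (edgeR adjusted p = 0.0113 for Stab2 and 0.00471 for Cnn3) and than in Akita (0.0154 for each). Ptpn13, a tyrosine phosphatase, was at 4.33, 5.73 and 15 CPM against 0.902, 0.448 and 1.14 CPM (-3.16 with the block, edgeR adjusted p = 0.018). Epha2, an ephrin receptor, was at 57.5, 59.9 and 27.3 CPM against 21.8, 22.1 and 5.2 CPM (-1.72 with the block, edgeR adjusted p = 0.0143). Among the higher genes, Mrgpra2a, a gene of the Mas-related receptor family, was at 1.51, 0.996 and 0.363 CPM against 9.72, 15.5 and 12.4 CPM (3.85 with the block, edgeR adjusted p = 0.0178). Meg3, an imprinted noncoding RNA, was at 0.403, 0.199 and 0.121 CPM against 3.31, 1.64 and 5.2 CPM (3.67 with the block, edgeR adjusted p = 0.018).

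The single mutants show where the combined label stands apart. Without the block, 13 genes were called higher (0.0832%) and 28 lower (0.179%) than in Tet2 heterozygous, and 3 higher (0.0192%) and 3 lower (0.0192%) than in Akita. With the block, 442 genes were higher (2.83%) and 261 lower (1.67%) in the double mutant than in Tet2 heterozygous, and 9 were higher (0.0576%) and 9 lower (0.0576%) than in Akita, for which 2 libraries were at hand. These comparisons share the double mutant libraries with the one against WT. The phagocyte genes Fcgr4 and Saa3 and the B lineage genes Spib and Bach2 were called against both single mutants with the block. Igll1 was lower than in Tet2 heterozygous (-3.39 with the block, edgeR adjusted p = 0.00647) and missed the threshold against Akita (-2.27, edgeR adjusted p = 0.0829). Pax5 did likewise, with -4.04 (edgeR adjusted p = 0.0136) and -3.66 (edgeR adjusted p = 0.0747). Ccnd1, a cyclin of early cell cycle, was lower than WT (-1.61 with the block, edgeR adjusted p = 0.0378) but near Tet2 heterozygous (-0.38, edgeR adjusted p = 0.433), at 14.3, 10.3 and 8.68 CPM against 13, 19.9 and 11.1 CPM.

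The start regions of the called genes were searched for short motifs of known regulators. RefSeq promoters of GRCm38.p6, each 250 bases before to 50 after a gene's start, were matched for 95 of the 144 higher and 80 of the 111 lower genes of the block, 107 windows in each set. Windows of 4 genes described above follow, with the letters of searched motifs in capitals: the E2A E-box CAGGTG in Fam129c and Igll1, kappa B, IRF (GAAA, any 2 bases, GAAA) and PU.1 (GAGGAAGT) in Fcgr4, and IRF, C/EBP (TTGCNNAA) and E2A in Saa3, each on either strand.
Fam129c chr8:71597458-71597757 (plus strand): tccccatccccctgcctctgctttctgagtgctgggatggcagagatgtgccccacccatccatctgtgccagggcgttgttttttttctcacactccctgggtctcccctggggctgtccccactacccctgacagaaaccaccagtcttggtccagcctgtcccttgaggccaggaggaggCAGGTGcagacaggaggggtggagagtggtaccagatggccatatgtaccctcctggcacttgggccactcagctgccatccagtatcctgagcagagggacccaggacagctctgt
Igll1 chr16:16863936-16864235 (minus strand): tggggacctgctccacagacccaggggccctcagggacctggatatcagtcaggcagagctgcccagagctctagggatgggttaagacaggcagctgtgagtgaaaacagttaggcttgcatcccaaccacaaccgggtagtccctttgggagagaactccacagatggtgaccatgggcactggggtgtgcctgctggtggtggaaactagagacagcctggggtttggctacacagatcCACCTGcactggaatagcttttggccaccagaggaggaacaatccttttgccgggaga
Fcgr4 chr1:171018676-171018975 (plus strand): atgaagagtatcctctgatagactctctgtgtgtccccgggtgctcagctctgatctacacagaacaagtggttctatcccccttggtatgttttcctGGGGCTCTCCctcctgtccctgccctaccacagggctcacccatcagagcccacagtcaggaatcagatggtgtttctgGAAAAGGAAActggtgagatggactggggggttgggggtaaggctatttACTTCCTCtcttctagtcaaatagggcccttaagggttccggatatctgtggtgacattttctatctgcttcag
Saa3 chr7:46715627-46715926 (minus strand): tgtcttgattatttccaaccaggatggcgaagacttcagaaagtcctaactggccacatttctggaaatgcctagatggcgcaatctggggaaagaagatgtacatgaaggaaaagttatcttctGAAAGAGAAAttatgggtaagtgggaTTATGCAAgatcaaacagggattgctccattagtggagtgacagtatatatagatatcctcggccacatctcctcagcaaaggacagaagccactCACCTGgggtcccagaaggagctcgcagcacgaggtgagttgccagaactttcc

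The EBF1 letters TCCC, any 2 bases and GGGA, which read the same on both strands, were in 6 of 107 windows of lower genes (5.61%) and 1 of 107 windows of higher genes (0.935%). Among 13983 windows of all genes tested 1.04% held them, and 0.904% of 32851 in the whole table. The 6 lower genes were Foxo1, Ptpn13, Cd22, Sema4b, Chst3 and Mast4, and the higher gene was Tinagl1. The letters lie 198 bases before the start in Chst3, 143 in Ptpn13, 137 in Mast4, 92 in Foxo1 and 49 in Cd22, and 19 after it in Sema4b. The matched stretches follow in capitals with 10 bases on either side.
Chst3 chr10:60219439-60219468 (minus strand): ccctggcgagTCCCCCGGGAcgcagctaag
Foxo1 chr3:52268235-52268264 (plus strand): tactgccgccTCCCGAGGGAaggcagcgcc
Ptpn13 chr5:103425039-103425068 (plus strand): agagactcggTCCCAAGGGAggaggcgggg
Cd22 chr7:30879058-30879087 (minus strand): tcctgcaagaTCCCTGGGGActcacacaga
Mast4 chr13:103334610-103334639 (minus strand): cacccagagcTCCCGCGGGAtcgggtggcc
Sema4b chr7:80186879-80186908 (plus strand): atactccaggTCCCCAGGGAcgacgaccgg
Tinagl1 chr4:130175270-130175299 (minus strand): tcctgaatcaTCCCTTGGGAattcctgtca

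PU.1 letters were in 5 windows of higher genes (4.67%) and 0 of lower genes, against 3.42% of windows of genes tested. C/EBP letters were in 12 windows of each set (11.2%), against 8.95%. The E2A E-box was in 24 windows of lower genes (22.4%) and 16 of higher genes (15%), against 18.2%. IRF letters were in 10 (9.35%) and 6 (5.61%), against 3.26%, and the kappa B motif in 9 (8.41%) and 5 (4.67%), against 5.17%. A few other genes described above were looked at singly. Pax5 held none of the motifs, and the Ebf1 windows held IRF letters or none. The lower gene Spib held kappa B and C/EBP letters, and the higher gene Stfa2 held the E2A E-box alone. These are descriptions of letters in the windows and were not tested, and no binding was measured here.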

How the data were processed

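Read counts of the lineage-negative marrow libraries were used as the authors deposited them, as raw counts per gene; reads were handled with bcl2fastq, Trimmomatic 0.32 and TopHat2 2.1.1 on GRCm38, per the submitters' processing notes. Not given in the sources used here are the counting program, the annotation release and whether strand was used, so overlapping and antisense genes cannot be separated. 1 column that matches no label was not used. Gene names came from GENCODE (30875 of 31060 IDs matched without version).

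Counts were filtered with filterByExpr, scaled by TMM and tested with edgeR 4.0.16 (R 4.3.3; glmQLFit, robust, quasi-likelihood test) in 1 fit of 4 groups, with Benjamini-Hochberg adjustment over all 15630 genes and a threshold of 0.05. The filter left genes with a mean of at least 0.134 CPM and removed others with up to 4.84 CPM. The script was tested on simulated data. SE is the log2 difference divided by the root of F. CPM values are TMM scaled. Within-number differences and their list medians use log2 CPM with a prior count of 0.5, which is a count and not a CPM value. For genes near 0 counts in 1 library these differences can therefore be large. The plot of pair differences for the genes of the named lists uses log2(CPM + 0.5) instead. Same-number libraries of WT and double mutant deviated together from their group means (Pearson r 0.315, 0.494 and 0.554 across genes), so the replicate block is given beside the results. Pairs of numbers 1 and 2 across the groups had r of 0.343 and 0.301, so the check sets number 3 apart and does not separate 1 from 2. No pair of libraries of a group differed by less than sampling noise (lowest chi-square per gene 15.6). Alternatives used DESeq2 1.42.0, limma 3.58.1, other scaling and filters, and leaving out each library.

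Named genes are those called, up to 15 per direction by p with the block and without number 3, up to 4 per list by p and 2 by level, and a few set genes; other genes named were chosen after their values were seen. The 38 gene lists and the members were chosen with earlier results of these data known. Promoters came from RefSeq GRCm38.p6.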

Additional observations from a re-analysis of the deposited data

How the results depend on the processing

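The count of genes called against WT (7, of which 4 higher and 3 lower) depended on the processing. With the replicate block it was 255 (144 higher, 111 lower), with the block on both groups alone 386 (178 and 208), without the libraries numbered 3 it was 519 (246 and 273), and with the block and that exclusion, chosen after seeing the data, 149 (64 and 85). DESeq2 called 408 (267 and 141), limma voom 13 (7 lower), and edgeR without a filter on low counts 52 (27 and 25). Upper quartile scaling and a fit without robust estimation gave 6 lower genes each. Both groups alone, without the block, gave 7 genes (6 higher, 1 lower), of which 4 were among the 7 of the fit of all libraries. So not all 3 lower genes of that fit were called from the WT and double mutant libraries alone. With the block on both groups alone, all 7 were called. Leaving out 1 library gave 1 to 49 genes, 1 to 25 higher and 0 to 24 lower. It was 1 without any single WT library, 2 without double mutant library 3, 4 without Tet2 heterozygous library 1, 11 without its library 2, 49 without its library 3 and 21 without double mutant library 1. The cause was not tested. At an unadjusted p under 0.05 there were 1374 genes without and 2957 with the block. Of 168 named genes, 167 had no reversal; Prss34, a basophil protease, was at 0.01 with all libraries and -1.51 (SE 0.29, edgeR adjusted p = 0.0348) without number 3. Akita had 2 libraries, and counts under 3 per library (0.133 to 0.203 CPM) limit the low genes.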

Other observations

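Genes of cell survival were set beside the above because Morrbid, a noncoding RNA next to the cell death gene Bcl2l11, is known from short-lived myeloid cells. Bcl2l11 was at 193, 199 and 44.2 CPM in WT and 181, 178 and 58.7 CPM in the double mutant, with overlap (0.04 with the block, edgeR adjusted p = 0.911). Gm14005, the identifier of Morrbid in the table, was at 9.32, 9.66 and 2.42 CPM against 16.2, 19.9 and 8.43 CPM (1.27 with the block, edgeR adjusted p = 0.154), and was called without number 3 (edgeR adjusted p = 0.041). Of 15 genes of that family list, Pmaip1 was called higher and Bmf lower with the block, both cell death genes. Over all genes, 0.921% were called higher and 0.71% lower with the block. Pmaip1 was at 104, 112 and 27.9 CPM against 168, 164 and 46.3 CPM, with overlap (0.66 with the block, edgeR adjusted p = 0.0484). Bmf was at 29.4, 27.7 and 5.57 CPM against 10.8, 11.8 and 3.04 CPM (-1.21, edgeR adjusted p = 0.0277). Il1r1, the interleukin 1 receptor, overlapped at 9.27, 8.02 and 10.4 CPM against 10.6, 9.55 and 21.9 CPM (0.52 with the block, edgeR adjusted p = 0.375).

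Stromal collagen was measured in every library: Col1a1 was at 4.94, 4.33 and 1.69 CPM in WT and 9.17, 11.4 and 8.87 CPM in the double mutant, without overlap but not called (1.54 with the block, edgeR adjusted p = 0.0631). Of 28 monocyte and macrophage genes, 14 lay above and 14 below 0, and 1 was called higher with the block, where 0.921% of all genes were. That gene was Vcan, a matrix proteoglycan, which was higher at 3.12, 5.38 and 0.968 CPM against 29, 47.4 and 4.37 CPM, where double mutant library 3 lay within the WT range (2.91, edgeR adjusted p = 0.0325). Without number 3, Vcan and Ms4a6d of that list were called higher and Irf8 lower.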
